A study of Mus musculus with 3 samples.

Results

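Scavenger receptors are macrophage surface proteins that bind modified lipoproteins, microbes and dying cells. The 9 genes described here are Marco, Msr1 and Colec12 of class A, Cd36, Scarb1 and Scarb2 of class B, Cd68 of class D, Stab1 of class H, and Cd5l, which encodes a secreted protein built from the scavenger receptor cysteine-rich domains that some class A members also carry. They were taken by gene symbol from the 24453 symbols of an RNA sequencing table, with the longest coding RefSeq transcript kept for each, and all 9 were found. The table holds 1 library each of macrophages from the liver (labelled Kupffer cells), the heart and the kidney, all from C57BL/6 mice that were 8 weeks old and in the steady state. All 3 groups went through the same sort, for cells positive for CD11b and for the macrophage antigen encoded by Adgre1 and negative for Ly6G and Ly6C, so each library holds what that gate let through. The labels do not say how many animals gave each library or of which sex. With 1 library per tissue variation between animals could not be assessed, no p-value is given, and every comparison describes these libraries.

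Levels are in RPKM, the reads on a gene per kilobase of its exons and per 1000000 counted reads. The reads behind them could be recovered as whole numbers, with a depth over all transcripts of 16743415 reads in the liver, 14460631 in the heart and 15550832 in the kidney library. Intervals are exact 95% Poisson intervals and, for folds, exact 95% Clopper-Pearson intervals of the share of reads. They cover counting error only, since copies made by PCR were not told apart from independent molecules. A fold against a library with 0 reads of the gene is a lower bound, computed as if that library held 3 reads. In bulk libraries like these, fewer cells of a type and less RNA per cell cannot be told apart. The 12 pan-macrophage markers, with Csf1r and Adgre1 among them, all stood at 1 RPKM or more in each library. The Kupffer cell marker Clec4f stood at 572 RPKM in the liver library and had 0 reads in both others.

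In general, class A receptors are trimers that take up acetylated and oxidised lipoproteins and bind bacteria, and class B receptors bind lipids such as long-chain fatty acids and high-density lipoprotein. Kupffer cells, the macrophages of the liver sinusoids, face portal blood and are known for clearing particles from it with such receptors. CD5L, also called AIM, is secreted by tissue macrophages, circulates bound to IgM and was named for inhibiting apoptosis. It is known as a target of the liver X receptors, nuclear receptors that respond to oxysterols.

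Promoter sequences are shown for the 2 genes found in the liver library alone, Marco and Cd5l, and for Cd68, which stood at a like level in all 3. They are the 250 bases before the RefSeq start on GRCm38.p6, the assembly of mm10, and were given for 6 of the 9 genes. Capitals mark matches on either strand to the letters GAGGAA (the core bound by PU.1, the master regulator of macrophages), TGANTCA (AP-1) and TGCTGA (a Maf half-site). The Marco window is chr1:120505025-120505274 on the minus strand, the Cd5l window is chr3:87357631-87357880 on the plus strand, and the Cd68 window is chr11:69666171-69666420 on the minus strand.
Marco: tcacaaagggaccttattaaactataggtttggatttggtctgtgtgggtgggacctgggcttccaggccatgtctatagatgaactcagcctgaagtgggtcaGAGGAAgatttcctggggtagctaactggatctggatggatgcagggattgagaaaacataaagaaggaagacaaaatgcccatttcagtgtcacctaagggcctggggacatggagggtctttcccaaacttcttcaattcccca
Cd5l: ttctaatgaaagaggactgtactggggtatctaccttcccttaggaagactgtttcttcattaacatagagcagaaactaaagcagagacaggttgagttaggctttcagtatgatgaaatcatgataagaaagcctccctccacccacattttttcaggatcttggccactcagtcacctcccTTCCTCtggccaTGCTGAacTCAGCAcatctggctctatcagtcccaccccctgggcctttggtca
Cd68: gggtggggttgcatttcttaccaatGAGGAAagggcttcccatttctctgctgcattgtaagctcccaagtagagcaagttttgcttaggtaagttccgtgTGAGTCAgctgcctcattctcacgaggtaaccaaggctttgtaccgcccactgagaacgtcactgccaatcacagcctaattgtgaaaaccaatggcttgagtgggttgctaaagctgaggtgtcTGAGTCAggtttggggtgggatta
The start used in the deposited table lies 60 bases further upstream for Marco and is the same base for Cd5l, Cd68, Scarb2 and Stab1. For Cd36 it lies 53063 bases further upstream, so the Cd36 window is not at the start of the transcript used. GAGGAA was present in all 3 of the windows shown, and in 4 of the 6 (Stab1 is the other), against 23.1% of 27025 promoter windows of the same length. TGCTGA was present in 4 of the 6, including Cd36 and Cd5l, in the latter on both strands, and in 15.8% of all windows. TGANTCA was present in Cd68 alone, with 2 matches, and in 6.87% of all windows. CACGTG, an E-box, and the ideal element of the liver X receptors, 2 copies of AGGTCA with a gap of 4 bases, were in none of the 6 windows and in 6.05% and 0.0111% of all windows. The marked matches do not overlap, and they describe letters, not binding.

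Summed over all 9, the liver library held the most RNA of these genes. Their RPKM summed to 1465 in the liver, 918 in the heart and 730 in the kidney library, and their reads made up 0.559%, 0.429% and 0.292% of all reads on the transcripts kept. Of the liver sum, Cd5l gave 32.2% and Marco 5.94%, and both had 0 reads in the other libraries. The liver lead over the heart rested on these genes, since without Cd5l and Marco the liver sum falls slightly below the heart sum. Without them it still exceeds the kidney sum. In the liver library 8 of the 9 stood at 1 RPKM or more, against 7 in the heart and 6 in the kidney library. The leading gene was Cd5l in the liver library, with 32.2% of the summed RPKM, and Cd68 in the others, with 36.2% in the heart and 51.8% in the kidney library. Behind it came Cd68, Msr1, Cd36, Marco, Scarb2, Scarb1 and Stab1 in the liver library. In the heart library the order was Cd68, Cd36, Msr1, Stab1, Scarb2, Colec12 and Scarb1, and in the kidney library Cd68, Cd36, Msr1, Scarb1, Stab1 and Scarb2. The counting intervals of neighbours in each of these orders did not overlap. Msr1, Cd36, Cd68 and Cd5l had more than 2 reads per base of exon in at least 1 library, up to 7.9 for Cd5l in the liver. The deposited table was made with a limit of 3 tags at a position. How far this held down the levels of these 4 genes, or their differences between libraries, was not tested.

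**Figure D1:**
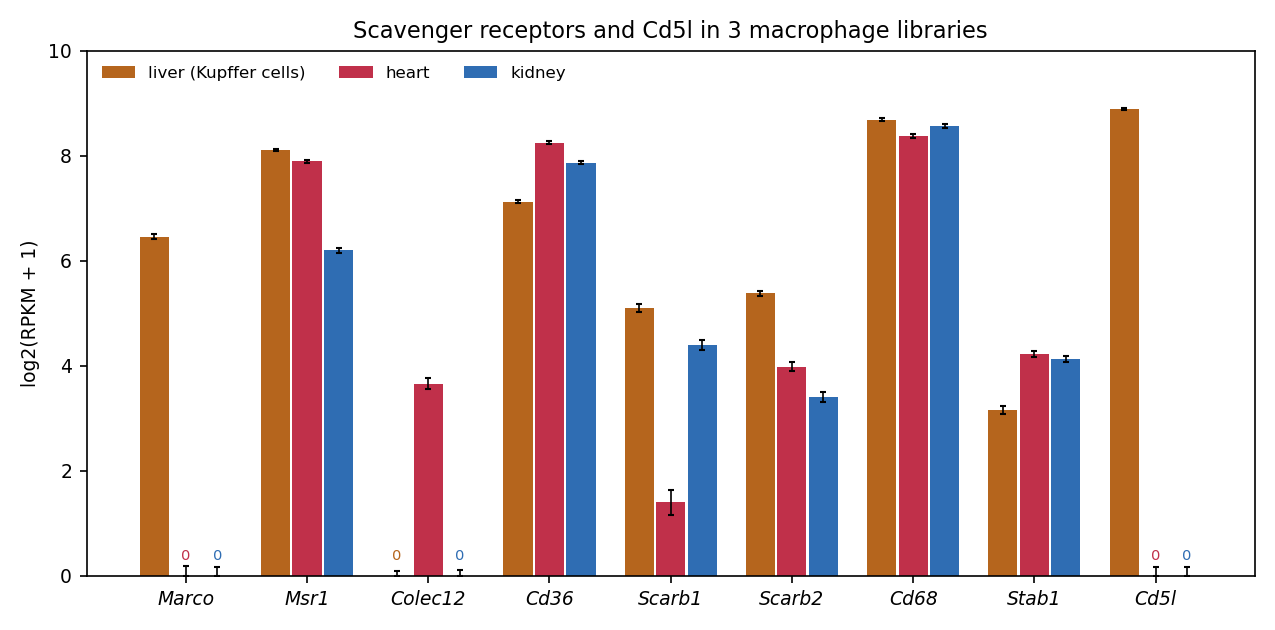
Level of each gene as log2(RPKM + 1), with liver (Kupffer cell), heart and kidney libraries side by side. Bars are single libraries, error bars are exact 95% Poisson intervals of the reads, and 0 marks a library with no reads. Marco and Cd5l have a bar in the liver library alone and Colec12 in the heart library alone, while the Cd68 bars lie between 8.38 and 8.69.

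Marco and Cd5l were found in the liver library alone. Marco encodes a class A receptor for bacteria and particles. It stood at 87.0 RPKM in the liver library (95% interval 83.8 to 90.2, 2863 reads), against 0 reads in the heart and 0 reads in the kidney library. Its liver level was at least 824-fold higher than the heart level and at least 886-fold higher than the kidney level. Cd5l stood at 472 RPKM in the liver library (465 to 479, 16033 reads), again against 0 reads in both others, so the bounds were at least 4616-fold over the heart and at least 4964-fold over the kidney. The 3 reads behind these bounds equal 0.106 RPKM in the heart and 0.0981 in the kidney library for Marco, and 0.102 and 0.0951 for Cd5l, and the exact Poisson upper limits at 0 reads were 0.13 and 0.121 for Marco and 0.126 and 0.117 for Cd5l. Cd5l ranked 11 and Marco 1011 among all genes of the liver library by RPKM. Marco lies on mm10 chromosome 1, 120474538 to 120505084, and Cd5l on chromosome 3, 87357881 to 87371074, and neither shares exon bases with another gene in the GENCODE M21 annotation.

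The genes closest in pattern to these members were found by Euclidean distance on log2(RPKM + 1) over the 3 libraries. For Cd5l they were Clec4f (distance 0.28), the fatty acid-binding protein gene Fabp7 (0.38) and the complement gene C6 (1.07). All of these are known from Kupffer cells, and they stood at 572, 364 and 296 RPKM in the liver library. For Marco they were Jchain (0.08), the joining chain of secreted antibodies, and Serpina1b (0.1) and Serpina1e (0.24), antitrypsin genes of hepatocytes whose near-identical copies may share reads. These stood at 82.0, 81.0 and 103 RPKM in the liver library and had 0 reads in both others. Cd5l and Marco had 0 reads in the heart and kidney libraries. Their closest genes are therefore those nearly absent there that have a like level in the liver library. The distances do not show which cells the reads came from.

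Markers of other liver cells differed alongside. Of 10 hepatocyte markers, 9 stood at 1 RPKM or more in the liver library, 2 in the heart and 3 in the kidney library. Their summed RPKM was 584, 392 and 391, of which Trf, encoding transferrin, gave 384, 388 and 382. Alb, encoding albumin, stood at 64.3 RPKM in the liver library, had 0 reads in the heart and stood at 0.22 RPKM in the kidney library. Of 9 lymphocyte markers, 8, 3 and 1 stood at 1 RPKM or more in the liver, heart and kidney library, with sums of 341, 38.5 and 168 RPKM. Of these sums Cd79b gave 170, 32.9 and 168, and 7 of the 9 had 0 reads in the kidney library. The 16 endothelial markers summed to 494, 681 and 414 RPKM, of which Lyve1 gave 15.1, 336 and 0 and Fcgr2b gave 87.4, 326 and 308. Lyve1 and Fcgr2b are also known from macrophages. Stab2, Oit3 and Gpr182 were read in the liver library alone. Cd5l, at 472 RPKM, stood above each hepatocyte, lymphocyte and endothelial marker in the liver library, and Marco, at 87.0, stood within their range. The part of these cells in the levels of Marco and Cd5l was not tested.

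**Figure D2:**
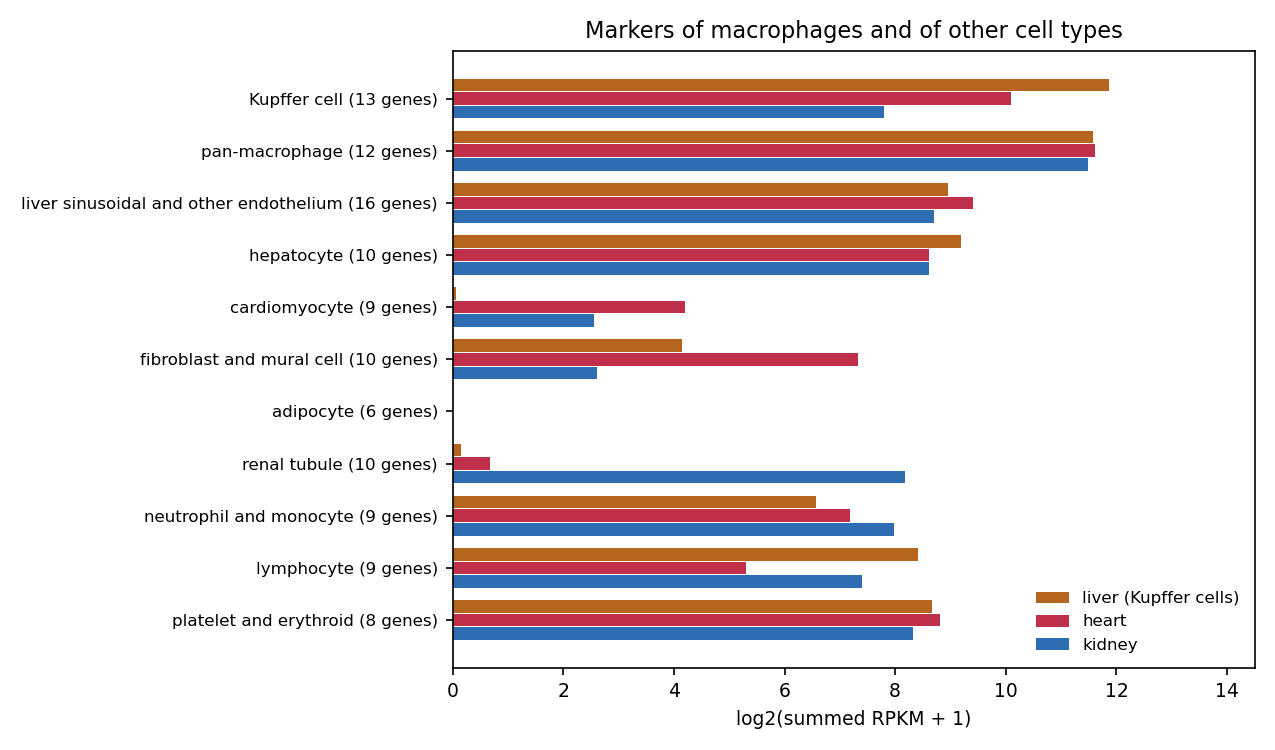
Summed level of each list of cell type markers as log2(summed RPKM + 1), with a bar for the liver, heart and kidney library from top to bottom in each list. The pan-macrophage bars are alike, the Kupffer cell bar is longest in the liver library, and the adipocyte markers have no reads in any library.

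Msr1 encodes scavenger receptor A, the class A receptor for acetylated lipoproteins. It was abundant in the liver and heart libraries and lower in the kidney library. Msr1 stood at 275 RPKM in the liver (271 to 279), 237 in the heart (232 to 241) and 72.3 in the kidney library (70.1 to 74.5). The liver level exceeded the kidney level 3.8-fold (counting interval 3.68 to 3.94), and the heart level exceeded it 3.27-fold (3.16 to 3.39). Against the heart, Msr1 was 1.16-fold higher in the liver library (1.14 to 1.19), and this direction depended on scaling, with a log2 difference of 0.22 as deposited and -0.04 after scaling each library by its median ratio over genes. Msr1 lies on chromosome 8, 39603452 to 39642678, for the transcript used here.

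That transcript, NM_031195 of 3632 bp, ends sooner in the genome than NM_001113326 of 1455 bp, whose 3′ end lies at 39581700. The annotated coding length is 1062 bases for NM_031195 and 1374 for NM_001113326, the longer of which encodes the form with the cysteine-rich domain. Over NM_001113326 the levels were 317, 258 and 103 RPKM in the liver, heart and kidney library, which is 115%, 109% and 142% of those over NM_031195. The log2 difference of liver minus kidney was 1.61 over NM_001113326 and 1.91 over NM_031195. The kidney library thus had more of its Msr1 reads on the shorter exon model, relative to the others. Reads in exons that both transcripts hold were counted for each, so the amounts of the 2 forms cannot be separated.

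Colec12 encodes collectin placenta 1, a class A receptor with a C-type lectin domain that is also known from endothelium and stroma. It was found in the heart library alone, at 11.6 RPKM (10.7 to 12.6, 557 reads), against 0 reads in both others. The liver level was at least 215-fold lower than the heart level, and the heart level at least 200-fold higher than the kidney level. The 3 reads behind these bounds equal 0.0541 RPKM for the liver library and 0.0583 RPKM for the kidney library, and the exact Poisson upper limits at 0 reads were 0.0666 and 0.0717 RPKM. Colec12 lies on chromosome 18, 9707648 to 9877995. Its closest genes in pattern were Gypc (distance 0.08), a membrane skeleton protein of red cells, Cd209d (0.08), a C-type lectin of the DC-SIGN group, and Glipr2 (0.2), at 11.02, 10.9 and 10.7 RPKM in the heart library. As for Cd5l and Marco, this closeness reflects a like level in a single library.

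Most fibroblast and mural cell markers were highest in the heart library, as Colec12 was. Of 10 such markers 3 stood at 1 RPKM or more in the liver library, 6 in the heart and 1 in the kidney library, and their sums were 16.7, 159 and 5.07 RPKM. Dcn, encoding decorin, stood highest, at 125 RPKM in the heart library, while Pdgfra stood at 1.62 and Lum, encoding lumican, at 21.0. Rgs5, of mural cells, ran the other way, at 3.84 RPKM in the liver and 0.051 in the heart library, with 0 reads in the kidney library. Of 9 cardiomyocyte markers, 6 stood at 1 RPKM or more in the heart library, with a sum of 17.3 RPKM, against sums of 0.041 RPKM for the liver and 4.90 RPKM for the kidney library. Their part in the Colec12 level was not tested.

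Cd36 encodes the fatty acid translocase, which takes up long-chain fatty acids and oxidised low-density lipoprotein. It was abundant in all 3 libraries and lowest in the liver. Cd36 stood at 138 RPKM in the liver (136 to 142), 303.7 in the heart (299 to 309) and 233 in the kidney library (229 to 237). The liver level of Cd36 was 2.19-fold lower than the heart level (counting interval 2.14 to 2.25) and 1.68-fold lower than the kidney level (1.64 to 1.73). The heart level was 1.3-fold higher than the kidney level (1.27 to 1.33). The intervals did not overlap and the directions held under each scaling, but none of these differences reached 4-fold. All 6 adipocyte markers had 0 reads in each library, and the highest cardiomyocyte marker in the heart library was Myl2 at 5.98 RPKM. Capillary endothelium and platelets also carry CD36. The 15 endothelial markers compared had a median log2 difference of 2.08 for liver minus heart and 2.29 for liver minus kidney, but single markers ran in different orders. Cdh5, which is also listed here as a Kupffer cell marker, stood at 52.9, 0.766 and 0.032 RPKM in the liver, heart and kidney library. Emcn stood at 0.908, 5.257 and 3.955 RPKM, highest in the heart as Cd36 was. The 8 platelet and erythroid markers summed to 404, 448 and 321 RPKM. Of these Pf4, which macrophages can also express, gave 249, 365 and 220. Ppbp stood at 0, 54.3 and 1.44, and Itga2b and Gp9 had 0 reads in the liver and heart libraries and at most 0.319 RPKM in the kidney library. The part of these cells in the Cd36 levels was not tested. Cd36 lies on chromosome 5, 17781690 to 17888959, and its 5 coding transcripts, which share the 3′ end, gave levels of at most 105% of the one used.

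Scarb1 encodes SR-BI, the receptor that takes cholesterol esters from high-density lipoprotein. It was far lower in the heart than in the other libraries. Scarb1 stood at 33.1 RPKM in the liver (31.4 to 34.9, 1390 reads), 1.63 in the heart (1.24 to 2.1, 59 reads) and 19.9 in the kidney library (18.6 to 21.4, 777 reads). The liver level was 20.3-fold higher than the heart level (counting interval 15.7 to 26.9) and 1.66-fold higher than the kidney level (1.52 to 1.82). The heart level was 12.2-fold lower than the kidney level (9.39 to 16.2). Hepatocytes are known to express Scarb1, and the hepatocyte markers given above differed alongside in the liver library. In the kidney library, with 0 reads of 5 of the 10 hepatocyte markers and Alb at 0.22 RPKM, Scarb1 stood at 19.9 RPKM. Of 10 renal tubule markers, 5 stood at 1 RPKM or more in the kidney library, led by Umod at 215 RPKM, and none in the liver or heart library, where they summed to 0.108 and 0.608 RPKM. The part of hepatocytes and tubule cells in the Scarb1 levels was not tested.

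The liver and kidney order of Scarb1 depended on the transcript. NM_001205083, which ends at 125283320 on chromosome 5 where the transcript used, NM_016741, goes on to 125277087, stood at 13.3 RPKM in the liver, 1.11 in the heart and 15.3 in the kidney library. That is 40.3%, 68.2% and 77% of the level over NM_016741, and the liver minus kidney difference was -0.19 log2 units over NM_001205083 against 0.7 over NM_016741. NM_001205082, which shares the distal 3′ end, gave 33.9, 1.66 and 20.3 RPKM, close to NM_016741. The liver excess over the kidney library was therefore present on the models with the distal end and absent on the model without it. The deficit in the heart was present on all 3, with heart minus kidney at -2.99, -3.00 and -2.95. The genes closest in pattern were Rpl29 (distance 0.31), a ribosomal protein gene, Psmg3 (0.38), a proteasome assembly factor, and Cdpf1 (0.42).

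**Figure D3:**
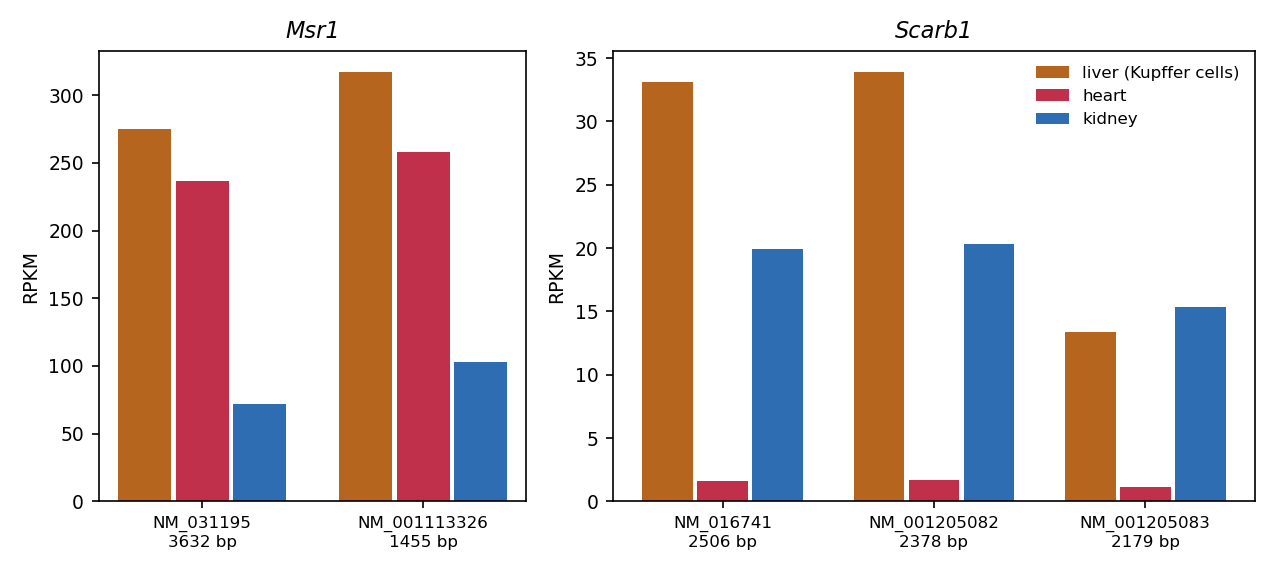
RPKM over each annotated transcript of Msr1 and Scarb1 in the liver, heart and kidney libraries, with the exon length under each name. The kidney bar of Scarb1 is below the liver bar for NM_016741 and NM_001205082 and above it for NM_001205083, where the liver bar is at 13.3 and the kidney bar at 15.3.

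Scarb2 encodes LIMP-2, a lysosomal membrane protein of class B that carries an enzyme to the lysosome. It was highest in the liver library. Scarb2 stood at 40.7 RPKM in the liver (39.3 to 42.1), 14.8 in the heart (13.9 to 15.7) and 9.64 in the kidney library (8.95 to 10.4). The liver level of Scarb2 was 2.75-fold higher than the heart level (counting interval 2.57 to 2.96) and 4.22-fold higher than the kidney level (3.89 to 4.58). The heart level was 1.53-fold higher than the kidney level (1.39 to 1.69). On the log2(RPKM + 1) scale the liver minus kidney difference was 1.97, just short of the 2 units that count as 4-fold here. Scarb2 lies on chromosome 5, 92441311 to 92505657.

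Cd68 encodes macrosialin, a lysosomal glycoprotein widely used as a macrophage marker. It was the most even member. Cd68 stood at 411 RPKM in the liver (402 to 420), 332 in the heart (323 to 340) and 378 in the kidney library (370 to 387). Its liver level was 1.24-fold higher than the heart level (counting interval 1.2 to 1.28) and 1.09-fold higher than the kidney level (1.05 to 1.12), and with TPM, where each library is scaled to a sum of 1000000 over genes, the log2 difference of liver minus kidney was 0.00. The heart level was 1.14-fold lower than the kidney level (1.1 to 1.18), a direction that turned with scaling by the median ratio, where the log2 difference was 0.1. Cd68 had 4.8 to 6.88 reads per base of exon. It lies on chromosome 11, 69664213 to 69666170.

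Stab1 encodes stabilin-1, a class H receptor of macrophages and sinusoidal endothelium that clears the matrix protein SPARC and acetylated lipoprotein. It was lowest in the liver library. Stab1 stood at 7.94 RPKM in the liver (7.47 to 8.44), 17.6 in the heart (16.8 to 18.4) and 16.5 in the kidney library (15.8 to 17.2). Its liver level was 2.22-fold lower than the heart level (counting interval 2.06 to 2.39) and 2.08-fold lower than the kidney level (1.93 to 2.24). The intervals of the heart and kidney levels overlapped. Its relative Stab2, a receptor of sinusoidal endothelium, stood at 57.5 RPKM in the liver library and had 0 reads in both others. The endothelial markers had more members at 1 RPKM or more in the liver library, 14 of 16, against 7 in the heart and 5 in the kidney library, where Stab1 was higher. Their part in the Stab1 level was not tested. Stab1 lies on chromosome 14, 31139017 to 31168641, and shares 1.09% of its exon bases with Nt5dc2.

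Differences of at least 2 log2 units, 4-fold on log2(RPKM + 1), were counted over the members. For liver minus heart, 3 of the 9 genes were higher (Marco, Cd5l and Scarb1), where 7.13% of 11482 genes were, and 1 was lower (Colec12), where 5.33% were. For liver minus kidney, 2 were higher (Marco and Cd5l), where 5.1% of genes were, and 0 were lower, where 7.57% were. For heart minus kidney, 1 was higher (Colec12), where 2.4% were, and 1 was lower (Scarb1), where 5.1% were. All 9 genes passed the filter of 1 RPKM in at least 1 library, but Marco and Cd5l passed through the liver and Colec12 through the heart library alone, so for these a difference was bound to follow and the counts support nothing by themselves. The closest to the threshold were Scarb2 at 1.97 and Msr1 at 1.91 for liver minus kidney. The median difference of the 9 was 0.31, 0.7 and 0.09 for liver minus heart, liver minus kidney and heart minus kidney, beside 0.16, -0.04 and -0.23 over all genes. Scaling moved the all-gene medians, to 0.00, -0.17 and -0.2 with TPM and to 0.00, -0.01 and 0.00 with the median ratio. It also moved the balance of all genes. For liver minus heart 9.56% were higher and 11.6% lower with TPM, and 5.87% and 6.76% with the median ratio, and for heart minus kidney 5.17% were higher and 9.76% lower with TPM, and 2.99% and 3.63% with the median ratio. For liver minus kidney 7.04% were higher and 15.0% lower with TPM, and 5.03% and 6.8% with the median ratio. The members called were as many under both.

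**Figure D4:**
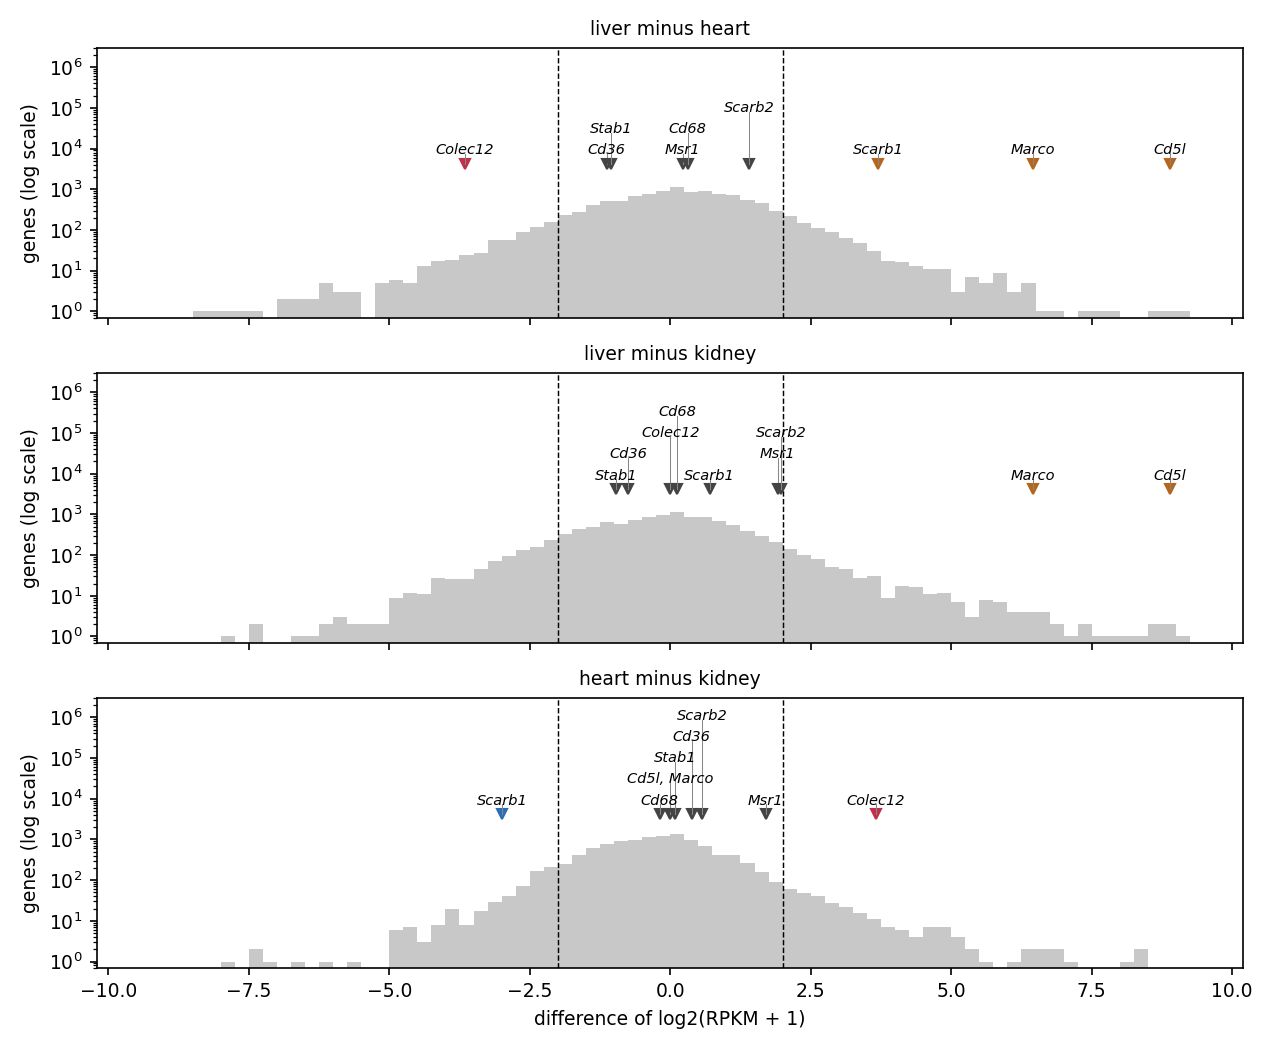
Difference of log2(RPKM + 1) for each comparison, with all 11482 genes as grey bars (number of genes, log axis) and the 9 members as triangles above them. Dashed lines mark 2 log2 units. Triangles past a line are coloured by the library in which the gene is higher, and Marco and Cd5l lie at 6.46 and 8.89 in both comparisons of the liver library.

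Other scavenger receptors were divided among the libraries. Of 27 further genes, 12 stood at 1 RPKM or more in at least 1 library. Of these 12, 3 reached 4-fold higher for liver minus heart (Stab2, Cd207 and Lrp1) and 0 lower, beside 7.13% and 5.33% of all genes, with a median difference of -0.38. Against the kidney, 3 were higher in the liver (Stab2, Cd207 and Cd163) and 1 lower (Asgr2), beside 5.1% and 7.57%, with a median of 0.23. Between heart and kidney, 1 was higher in the heart (Cd163) and 0 lower, beside 2.4% and 5.1%, with a median of 0.04. Stab2 had 0 reads in the heart and kidney libraries and passed the filter through the liver library alone. For Stab2 a difference was bound to follow, and the counts that include it support nothing by themselves. Cd163, the receptor for hemoglobin bound to haptoglobin, also has the cysteine-rich domains of Cd5l and Marco. It stood at 243 RPKM in the liver, 252 in the heart and 5.68 in the kidney library, and so was abundant in the heart, where Cd5l and Marco had no reads. Cd207, encoding the lectin langerin, stood at 277, 3.998 and 3.30 RPKM. Its liver level was 69.2-fold higher than the heart level (counting interval 56.1 to 86.4) and 83.9-fold higher than the kidney level (67.2 to 106). Asgr2, a subunit of the asialoglycoprotein receptor, stood at 1.83, 5.88 and 11.9 RPKM in the liver, heart and kidney library. With TPM, under which 16 genes passed the filter, the counts were 4 higher and 2 lower, 4 and 3, and 2 and 0 for liver minus heart, liver minus kidney and heart minus kidney, and the median was -0.05 both for liver minus kidney and for heart minus kidney. With the median ratio 1 gene was lower for liver minus heart, with a median of -0.64, and 2 were higher for heart minus kidney. The remaining 15 genes, among them Scara5, Ager and Megf10, stood below 1 RPKM in each library.

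Among regulators known to act on these genes, Nr1h3 differed most. Of 22 regulators, 19 were compared. For liver minus heart 3 were higher (Nr1h3, Rxra and Id3) and 1 lower (Bach1), beside 7.13% and 5.33% of all genes, with a median of 0.32 (0.1 with TPM and 0.07 with the median ratio). For liver minus kidney 4 were higher (Nr1h3, Rxra, Id3 and Id1) and 0 lower, beside 5.1% and 7.57% of all genes, with a median of 0.43 (0.12 with TPM). For heart minus kidney 1 was higher (Bach1) and 0 lower, beside 2.4% and 5.1%, with a median of 0.36. With TPM, under which all 22 passed the filter, the counts were 4 higher and 2 lower for liver minus heart, 4 and 0 for liver minus kidney, and 2 and 1 for heart minus kidney. Nr1h3, encoding the liver X receptor alpha, stood at 104 RPKM in the liver (3379 reads), 1.07 in the heart and 2.78 in the kidney library. Its liver level was 97.3-fold higher than the heart level (counting interval 68.0 to 144) and 37.4-fold higher than the kidney level (30.1 to 47.0). Its partner Rxra stood at 22.3, 0.605 and 1.49 RPKM. Nr1h2, the other liver X receptor gene, stood at 3.89, 0.344 and 2.62 RPKM and fell short of 2 log2 units in each comparison. Nr1h3 and Id3 are also listed here as Kupffer cell markers. The part of the liver X receptors in the Cd5l level was not tested. Id3, a helix-loop-helix regulator known for Kupffer cell development, stood at 73.1, 7.3 and 6.58 RPKM in the liver, heart and kidney library. Bach1, a repressor that senses heme, stood at 2.21, 44.6 and 5.26 RPKM and so was highest in the heart library. Pparg, which is known to induce Cd36, stood at 22.3, 12.2 and 22.4 RPKM, and its part in the Cd36 levels was not tested. Spi1, encoding PU.1, stood at 8.83, 4.90 and 7.61 RPKM.

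**Figure D5:**
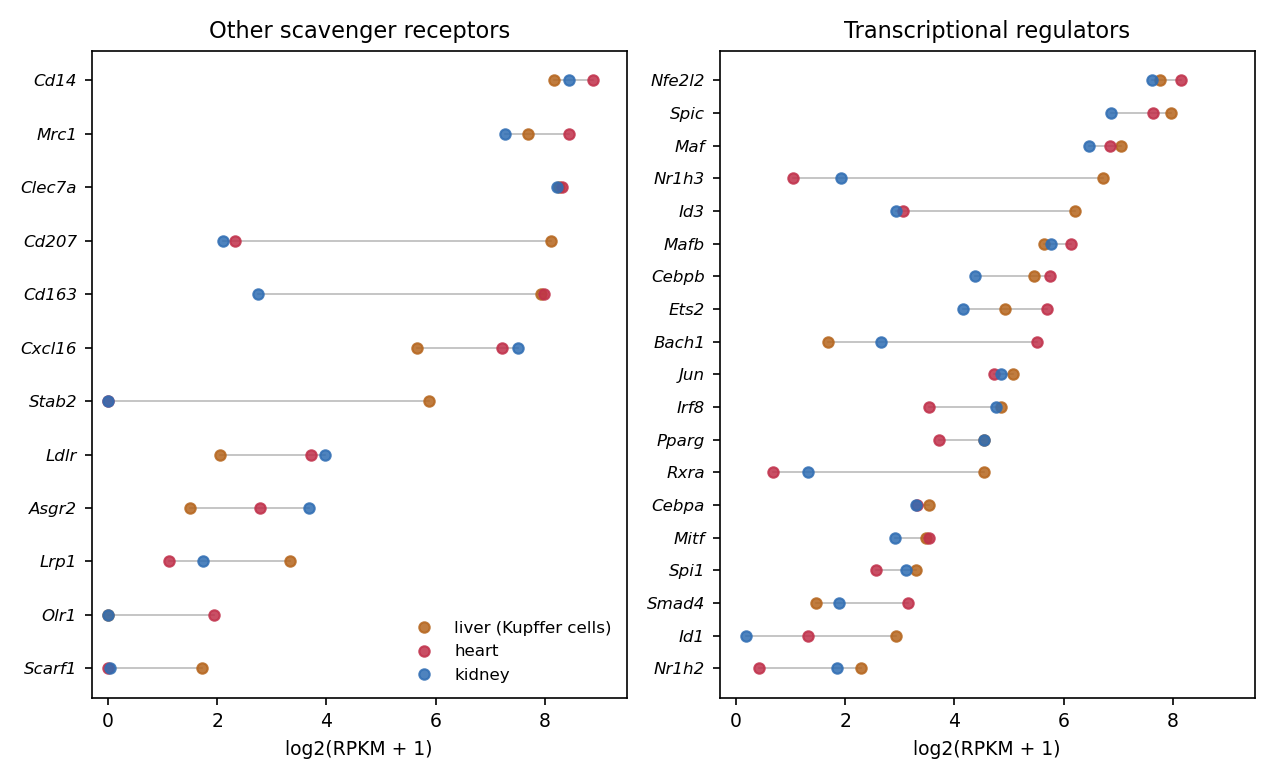
Level as log2(RPKM + 1) of the other scavenger receptors (left) and of the transcriptional regulators (right) that stood at 1 RPKM or more in at least 1 library, with a dot for the liver, heart and kidney library. Stab2, Cd207, Nr1h3, Rxra and Id3 have the liver dot far to the right of both others, and Cd163 has the kidney dot far to the left.

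Partners of the class B receptors and genes of lipid handling were divided. Of 22 genes, 21 were compared. For liver minus heart 1 was higher (Abcg1) and 4 were lower (Tlr2, Cav1, Fabp4 and Cd9), beside 7.13% and 5.33% of all genes, with a median of 0.07. For liver minus kidney 2 were higher (Fabp4 and Fyn) and 1 lower (Cd9), beside 5.1% and 7.57%, with a median of 0.14. For heart minus kidney 2 were higher (Fabp4 and Abca1) and 1 lower (Abcg1), beside 2.4% and 5.1%, with a median of 0.03. The sign of the median depended on scaling for liver minus heart, at -0.09 with TPM and -0.19 with the median ratio, and for liver minus kidney, at -0.01 with TPM. With the median ratio Cd9 for liver minus kidney and Abcg1 for heart minus kidney fell short of 4-fold. Abcg1, a sterol exporter, stood at 85.7, 11.6 and 59.6 RPKM in the liver, heart and kidney library, with the heart lowest, as for Scarb1. Cd9, a tetraspanin that associates with CD36, stood at 73.7, 308 and 303 RPKM, with the liver lowest, as for Cd36. Tlr2, a receptor for bacterial lipopeptides that works with CD36, stood at 34.7, 294 and 109 RPKM, and Fabp4, a fatty acid-binding protein, at 30.004, 139 and 3.85. Fyn, a kinase downstream of CD36, stood at 17.5, 6.89 and 1.98 RPKM.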

How the data were processed

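RNA was sequenced from sorted macrophages of the liver, heart and kidney, with 1 library per tissue. Per the labels' protocols, total RNA was amplified with a kit for low input before Illumina libraries were made. CASAVA, STAR and the build mm10 are named in the submitters' processing notes, with versions not given in the sources used here. RPKM is the deposited unit, which the authors made with HOMER's analyzeRepeats.pl, per the file headers. The command counted both strands of exons, set a library total of 1000000 and used the option -pc 3. The columns are named FPKM, while the command asks for RPKM. Since strand was ignored, overlapping genes cannot be separated.

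For each symbol the longest NM_ transcript was kept. Reads were recovered from the step of low values: all values of up to 500 reads that were checked (10952, 14395 and 13147 in the liver, heart and kidney library) lay within 0.1 of a whole read. Genes with at least 1 RPKM in at least 1 library were compared by the difference of log2(RPKM + 1), and at least 2 units counted as called. No test was possible with 1 library per tissue. Members and lists were chosen with earlier results of these data known. Genes beside the members were named by rule: up to 4 per list with the largest differences among those at 10 RPKM or more, the 3 nearest patterns of members that span at least 2 units, and the most abundant markers. Some genes called in a list, and Nr1h2, Pparg, Spi1, Lamp2 and several markers, were named after their values were seen. Some genes that the rule chose are not reported here. Alternatives were pseudocounts of 0.1 and 5 RPKM, TPM, median ratio scaling, no filter, the transcript with the highest mean, and leaving out genes of over 2 reads per base. Python 3.11.15, pandas 2.3.3, NumPy 2.4.6 and SciPy 1.17.1 were used.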

Additional observations from a re-analysis of the deposited data

How the results depend on the processing

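No paired analysis was possible because each tissue has 1 library. Of the 27 differences of members, the 8 of at least 4-fold changed sign under none of the 7 alternatives, of which 6 kept Cd5l. Those of Marco, Cd5l and Colec12 set a level against 0 reads, so no alternative could change their sign. Only those of Scarb1 could have changed. On rounded values 2 smaller differences changed sign (Msr1 for liver minus heart and Cd68 for heart minus kidney, both with the median ratio). Cd68 for liver minus kidney came to -0.0 with TPM. With a pseudocount of 5 RPKM, which pulls low genes together, 0 members were at least 4-fold lower for liver minus heart, and 0 were higher and 0 lower for heart minus kidney, since Colec12 then differed by 1.73 and Scarb1 by -1.91 for heart minus kidney. Without genes of over 2 reads per base, which leaves 5 of the 9 members, 1 was higher for liver minus kidney, because Cd5l was left out. With a pseudocount of 0.1 RPKM, Scarb2 joined Marco and Cd5l there, at 2.06, for a count of 3. Other counts of members stayed within 1.5 times. The share of all genes called moved more: for liver minus heart it was 7.13% higher and 5.33% lower as reported, 14.7% and 13.8% with a pseudocount of 0.1, 2.36% and 1.69% with 5, and 9.56% and 11.6% with TPM. Depth leaves the folds of Marco, Cd5l and Colec12 as lower bounds, and Scarb1 in the heart rests on 59 reads.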

Other observations

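Lysosomal genes were followed because Cd68 and Scarb2 are lysosomal membrane proteins. Of 15 such genes, 14 stood at 1 RPKM or more in at least 1 library, and 0 of them were at least 4-fold higher or lower for liver minus heart and for heart minus kidney. Lamp1, a lysosomal membrane glycoprotein, stood at 212, 68.7 and 59.0 RPKM in the liver, heart and kidney library, in the order of Scarb2, and its liver level was 3.08-fold higher than the heart level (counting interval 2.94 to 3.23). Hexa, encoding a subunit of a lysosomal enzyme, ran in the opposite order, at 68.3, 108 and 233 RPKM. Lamp2, a relative of Lamp1 and Cd68, stood at 257, 369 and 273 RPKM, highest in the heart. The list therefore held genes highest in each of the 3 libraries.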
